A study of Drosophila pseudoobscura with 29 samples.

Results

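The libraries compared here were the last of an embryonic time series, 3 windows of 1 hour at 21-24 h after egg laying against 4 windows at 24-27 h and 28-29 h, which are called 24-29 h below. They make up 7 of the 29 libraries of the series, and the 27-28 h library was left out because it held only 1011 reads. All embryos were whole, staged embryos of the wild-type reference genome strain of Drosophila pseudoobscura, laid in population cages, with no mutation and no treatment in either group. Promoter activity was profiled by RAMPAGE, in which the first base of each read marks the start of a capped transcript. Start sites are grouped into transcription start site clusters (TSCs), each standing for a promoter, and activity is given in RPM, reads per 1000000 reads. The labels name 1 library per window and all barcoded samples were pooled and processed together, so the windows of a group served as stand-in replicates. Their spread therefore holds developmental change within the group as well as technical error, and age and the barcode of a window cannot be told apart.

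In the closing hours of fly embryogenesis the organs are already formed, the epidermis has secreted the larval cuticle, the gut and nervous system become functional, and the larva then hatches and starts to feed. Embryos of this species develop more slowly than those of Drosophila melanogaster. At the opposite end of development, the egg carries RNA loaded by the mother, much of which is cleared as the zygotic genome becomes active. Fly promoters range from peaked ones, where transcription starts within a few bases, to broad ones with start sites spread over many bases. Broad promoters are common at genes used in most cells and peaked ones at genes used in particular tissues.

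The 3 libraries at 21-24 h held 920265, 1440146 and 3311104 reads in TSCs, and the 4 libraries at 24-29 h held 5247396, 723775, 2797552 and 887281. A single read was worth at most 1.38 RPM in the shallowest library, so a TSC with no read there could have reached 4.14 RPM, the value of 3 reads. These limits cover counting error only. Pearson correlations of log2(RPM + 1) over the 6309 genes tested, which are not independent replicates, were 0.89 to 0.94 between windows of 21-24 h, 0.90 to 0.96 between windows of 24-29 h, and 0.76 to 0.91 between the groups. The genes of the gene table summed to 716233 to 741676 RPM at 21-24 h and to 746410 to 795649 RPM at 24-29 h, the rest falling on reads given to none of them. Fewer cells of a type and less RNA per cell cannot be told apart in libraries from whole embryos. The labelled source could not be checked against marker genes, since no table at hand pairs the gene identifiers with symbols, and for the same reason genes are described here by identifier, position and course rather than by function.

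Between 21-24 h and 24-29 h, 585 genes rose and 335 fell out of 6309 tested, which is 9.27% and 5.31% of the genes tested and 14.6% in all (limma on log2(RPM + 1), two-sided, Benjamini-Hochberg adjusted p under 0.05). Some identifiers had the same values in all 7 libraries, such as FBgn0001223 and FBgn0001228, and each was counted as a gene. The risen genes had a median difference of 1.50 on the log2(RPM + 1) scale, from 0.84 to 4.32. Fallen genes had a median difference of -1.70, and the largest fall was -5.59. Among the fallen genes, 124 changed by at least 2 on that scale, or 37.0% of them, against 104 of the risen genes, or 17.8%. The 2 groups of libraries did not overlap for 561 of the risen and 316 of the fallen genes, where 28.2% of all genes tested had groups that did not overlap. Rises made up 63.6% of the calls, but 51.7% (468 higher, 438 lower) after the libraries were rescaled to a common upper quartile, which shifted the median of all genes by -0.11.

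The count of calls rested on single libraries. Leaving out the 22-23 h, 23-24 h, 25-26 h, 26-27 h or 28-29 h library reduced it from 920 to 461, 529, 554, 356 and 433 genes. Without the 21-22 h library 826 genes were called, of which 652 were among the 920 with the same direction. Without the 24-25 h library 1021 were called, with 834 of the 920 among them. No gene called with all 7 libraries was called in the opposite direction in any of these fits.

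The genes that rose were mostly genes most active in the early embryo. Their median level was 6.80 on the log2(RPM + 1) scale at 0-3 h, in libraries outside the comparison, and it declined through every later group of windows to 5.04 at 18-21 h. It was lowest at 21-24 h, with 4.57, and stood at 6.14 at 24-29 h. By library, the median was 4.75, 4.53 and 4.53 in the windows of 21-24 h, then 5.79, 6.18, 6.27 and 6.35. The step between 23-24 h and 24-25 h was therefore the largest between neighbouring windows of the 7, although the values of these windows chose the genes and are given as a description. At 18-21 h, 485 of the 585 risen genes (82.9%) were below their own level at 0-3 h, against 3699 of all 6309 genes (58.6%). Only 143 of them exceeded their 0-3 h level at 24-29 h.

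The genes that fell followed the reverse course. Their median was 0.38 at 0-3 h and climbed to 4.95 at 15-18 h and 5.93 at 18-21 h, before the comparison began. At 21-24 h it was 5.80, and at 24-29 h it was 3.95, below the median at 15-18 h. The per-library medians were 5.94, 5.88 and 5.56 at 21-24 h, then 4.52, 3.88, 4.05 and 3.61. From 15-18 h to 18-21 h, 232 of the 335 fallen genes increased (69.3%), against 2286 of all genes tested (36.2%). A mean below 1 on the log2(RPM + 1) scale at 0-3 h was found for 201 of the 335 fallen genes, for 79 of the 585 risen ones and for 1337 of all genes tested (21.2%).

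**Figure D1:**
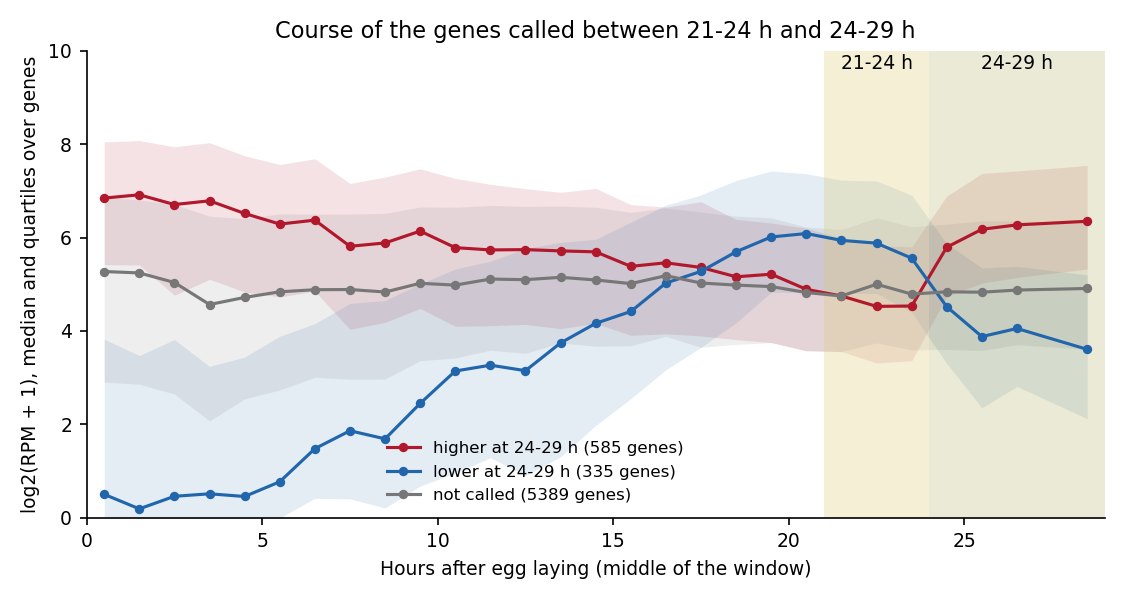
Median log2(RPM + 1) over genes (points and lines) with quartiles (shaded) in each of 28 windows, for genes higher at 24-29 h (red), genes lower at 24-29 h (blue) and genes not called (grey), with the compared windows shaded in the background. The red median declines from 6.80 at 0-3 h to 4.57 at 21-24 h and stands at 6.14 at 24-29 h, while the blue median climbs from 0.38 to 5.93 at 18-21 h and drops to 3.95.

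To place the calls among all genes, each gene was put in the 3-hour group before 21 h in which its mean was highest. Of the 2051 genes highest at 0-3 h, 277 rose (13.5%) and 22 fell (1.07%). The share that rose was largest for genes highest at 3-6 h, with 150 of 737 (20.4%), of which 5 fell. Together the genes highest before 6 h supplied 427 of the 585 rises (73.0%) while being 44.2% of the genes tested. In contrast, the 1378 genes highest at 18-21 h included 213 that fell (15.5%) and 60 that rose (4.35%), and they supplied 63.6% of all falls. Genes highest in the middle of the series, between 6 h and 15 h, lay below the overall share in both directions, with 2.87% to 6.80% higher and 2.76% to 4.04% lower.

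**Figure D2:**
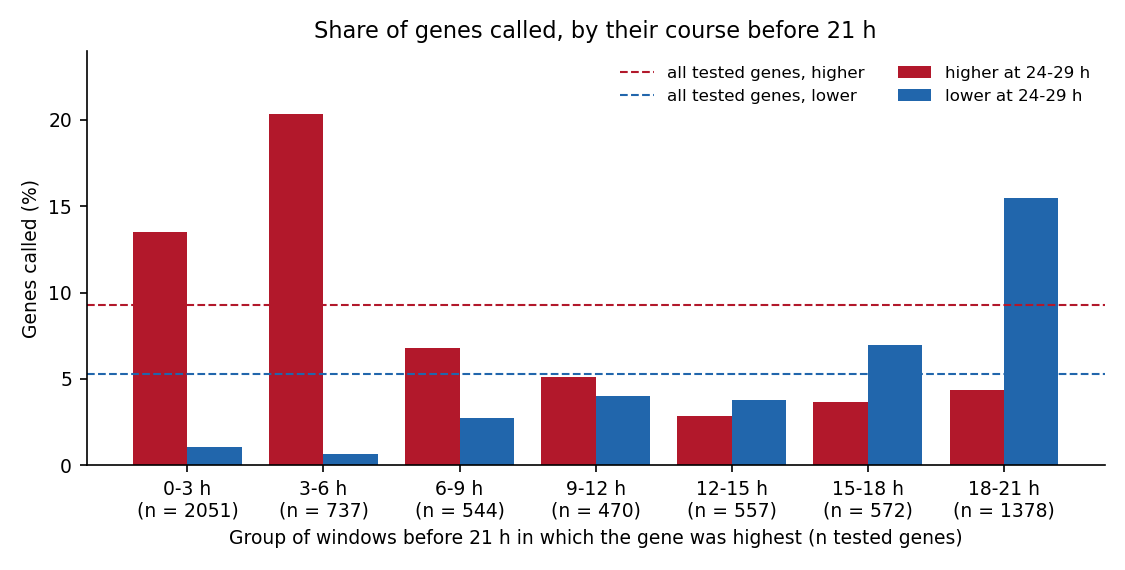
Share of genes called higher (red) or lower (blue) at 24-29 h than at 21-24 h, in percent, by the 3-hour group before 21 h in which the gene was highest, with dashed lines for all 6309 genes tested. Rises are most frequent in the 3-6 h class (20.4%) and falls in the 18-21 h class (15.5%).

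Among the risen genes that were highest early, the return was partial. For the 277 risen genes that were highest at 0-3 h, the summed level fell from 84794 RPM at 0-1 h to 14279 RPM at 23-24 h, which was 16.2% of the 0-3 h mean. It was then 30456, 40512, 42750 and 46065 RPM in the 4 windows of 24-29 h, or 34.5% to 52.1% of the 0-3 h mean. The same genes had summed to 45783 RPM at 4-5 h. Their rise at 24-29 h chose these 277 genes, so the step at 24 h is given as a description. All 2051 genes highest at 0-3 h, called or not, had a median difference of 0.26 on the log2(RPM + 1) scale.

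Genes whose RNA was found almost only in the early embryo stayed low. A set of 31 genes with a mean of at least 25 RPM at 0-3 h and less than 1/20 of that in every window from 9 h to 21 h, chosen after the courses were seen but from libraries outside the comparison, summed to 9307 RPM on average at 0-3 h. Its sum was highest at 3-4 h, with 15564 RPM, and was 2875 RPM at 4-5 h and 439 RPM at 5-6 h. The set summed to 69.0, 146 and 108 RPM at 21-24 h and to 158, 114, 157 and 263 RPM at 24-29 h, at most 2.82% of the 0-3 h mean. Its 2 groups overlap, and the highest value was in the last window. Of the 31 genes, 9 passed the filter on low values and 1 of them rose, too few to be read against the 9.27% of all genes tested. The part of misassigned barcodes in the rises was not tested.

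Some genes first passed 5 RPM in these hours. Of the genes that stayed under 5 RPM in every window from 0 h to 21 h, 166 passed the filter on low values, and 34 of them rose and 4 fell. Such genes passed that filter mainly through the windows where they were high, and 4 of the 7 windows are at 24-29 h, so the count is a description and cannot be read against the 9.27% and 5.31% of all genes tested. The risen ones had a median of 3.24, 3.79 and 7.79 RPM at 21-22 h, 22-23 h and 23-24 h, and of 17.3, 22.0, 40.1 and 39.7 RPM at 24-29 h. Their summed level went from 177 RPM in the first of the 7 windows to 1810 RPM in the last. All 34 were detected in each window of 24-29 h, and 29 of them were already detected at 21-22 h.

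The gene with the largest rise was FBgn0039471, whose reads came from a single TSC of 15 bp on the minus strand of chromosome 2, positions 8441853 to 8441867 of the FlyBase r2.9 genome. It was at 3.24, 0.69 and 5.99 RPM at 21-24 h and at 12.3, 89.2, 162 and 148 RPM at 24-29 h, so the groups did not overlap and the first window of 24-29 h was the nearest to the earlier group. The log2(RPM + 1) means of the groups differed by 4.32 (SE 0.78), with a limma adjusted p of 0.0085. No window before 21 h exceeded 1.37 RPM.

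FBgn0037714 had a TSC of 32 bp on the minus strand of the same chromosome, at 24016032 to 24016063. It had 1 read in total at 21-24 h, giving 1.08, 0 and 0 RPM, and 12.7, 16.5, 22.0 and 34.7 RPM at 24-29 h. The difference was 4.04 (SE 0.47, limma adjusted p = 0.0026), and the ratio of pooled reads was 95.9 with an exact counting interval from 17.0 to 3810. FBgn0039471 and FBgn0037714 had means of 3.31 and 0.36 RPM at 21-24 h. Both passed the filter on low values only through the windows of 24-29 h, so their adjusted p-values are given as a description. Both genes were called in every alternative fit that tested them.

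The largest fall was that of FBgn0036112, with a TSC of 20 bp on the minus strand of XR_group6, a scaffold of the X chromosome arm XR, at 6067164 to 6067183. It went down already within the earlier group, from 1788 to 838 and 384 RPM, and was at 37.3, 13.7, 35.5 and 3.35 RPM at 24-29 h. The difference was -5.59 (SE 0.72, limma adjusted p = 0.0026). Its highest window in the series was 20-21 h, with 3558 RPM, and it was at 0.11 RPM on average at 0-3 h.

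FBgn0052570 behaved alike, with a TSC of 19 bp on the minus strand of XL_group1a, positions 6713684 to 6713702. It had 832, 450 and 148 RPM at 21-24 h, and 18.7, 12.4, 23.8 and 2.24 RPM at 24-29 h. The difference was -4.99 (SE 0.70, limma adjusted p = 0.0036). As for FBgn0036112, the groups did not overlap and the call stood in all alternative fits.

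**Figure D3:**
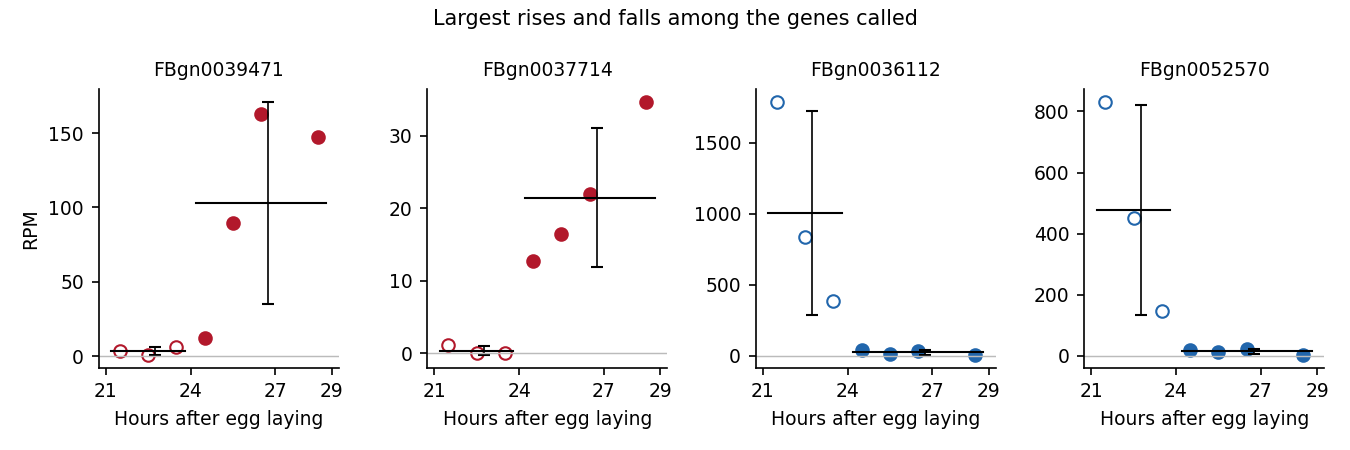
RPM in each of the 7 windows for the 2 genes with the largest rise (red) and the 2 with the largest fall (blue), open circles for 21-24 h and filled circles for 24-29 h, with the group mean (horizontal line) and SD (error bar, n = 3 and n = 4), each panel on its own linear axis. FBgn0039471 is at most 5.99 RPM before 24 h and at least 12.3 RPM after, and FBgn0036112 is at least 384 RPM before and at most 37.3 RPM after.

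At the level of promoters, 947 TSCs rose and 518 fell out of 9478 tested (9.99% and 5.47%, 15.5% in all, limma as for genes). Median differences were 1.66 for risen and -1.81 for fallen TSCs, and the groups did not overlap for 907 and 492 of them, where 29.4% of all TSCs tested had groups that did not overlap. Leaving out the 22-23 h, 23-24 h, 25-26 h, 26-27 h or 28-29 h library reduced the 1465 calls to 623, 696, 853, 460 and 646. The shares for TSCs given to no gene were close to those for TSCs given to a gene. Of 1016 such TSCs, 95 rose (9.35%) and 64 fell (6.30%), against 852 (10.1%) and 454 (5.37%) of 8462 TSCs given to a gene.

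Risen and fallen promoters differed in width. TSCs that rose had a median width of 122 bp (quartiles 81 and 233), those that fell 61.5 bp (quartiles 26 and 128), and all TSCs tested 97 bp. In the widest class, over 200 bp, 273 of 1563 TSCs rose (17.5%) and 49 fell (3.14%). Among TSCs of 11 to 30 bp the order was reversed, with 90 of 1167 higher (7.71%) and 145 lower (12.4%). TSCs are not replicates, so these are descriptions without a test.

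Depth and earlier course moved with width. Wider TSCs had more reads, with a median of 509 reads over the series in the class of 11 to 30 bp and 5743 in the class over 200 bp, and clusters were called on the pooled series. When the TSCs were divided by quartile of total reads, the median width of risen and fallen TSCs was 40 and 28.5 bp in the lowest quartile, 124 and 74 bp in the second, 111 and 82 bp in the third, and 137 and 131 bp in the highest. Among TSCs highest at 18-21 h, the 128 that rose had a median width of 29 bp and the 351 that fell 36 bp. Among those highest at 0-3 h, the 485 that rose had a median of 136 bp, the 25 that fell 120 bp and those not called 103 bp. The difference in median width was thus smaller in each quartile of reads and in the 0-3 h class than over all TSCs. It had the opposite sign in the 18-21 h class and in those of 6-9 h (109 against 134 bp), 9-12 h (119 against 122 bp) and 15-18 h (36 against 94 bp), and kept its sign in those of 3-6 h (131 against 65 bp, with 4 fallen TSCs) and 12-15 h (146 against 114 bp).

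**Figure D4:**
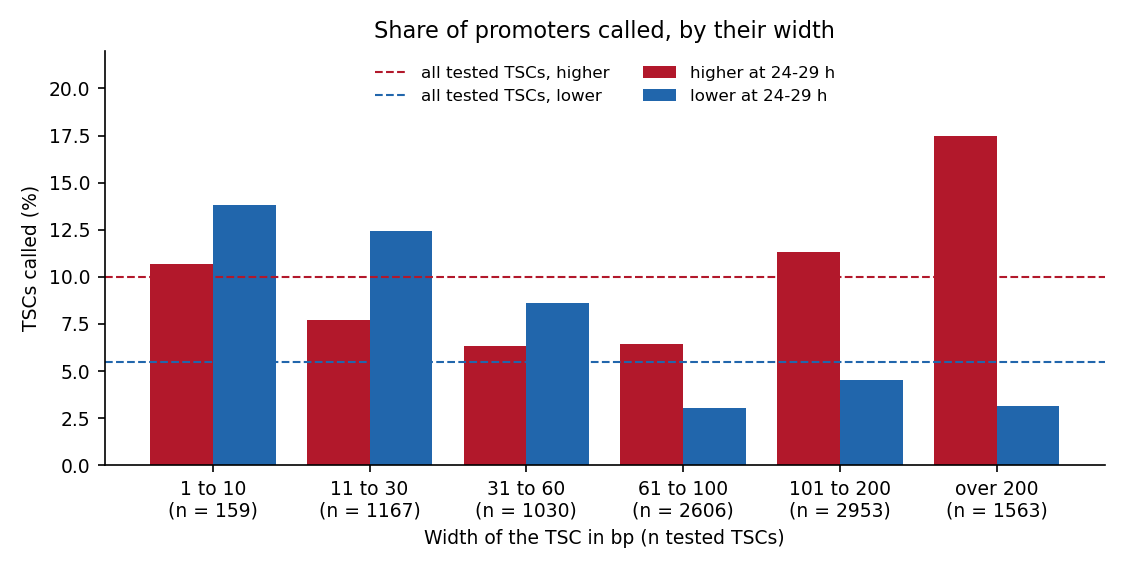
Share of TSCs called higher (red) or lower (blue) at 24-29 h, in percent, in 6 classes of TSC width in bp, with dashed lines for all 9478 TSCs tested. Falls outnumber rises up to 60 bp, and above 200 bp 17.5% rise and 3.14% fall.

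Among the chromosome arms, XL had the largest share of risen TSCs, 220 of 1628 (13.5%), and XR the largest share of fallen ones, 139 of 1874 (7.42%). The shares of risen TSCs on 2, 3, 4 and XR lay between 8.73% and 9.99%, and those of fallen TSCs on 2, 3, 4 and XL between 4.28% and 5.52%. XL and XR are the 2 arms of the X chromosome in this species.

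The 2 largest rises among TSCs given to no gene were both broad. A TSC of 253 bp on the plus strand of chromosome 2, at 5639922 to 5640174, had no read in any of the 3 libraries at 21-24 h and 6.29, 48.4, 16.4 and 11.3 RPM at 24-29 h. The log2(RPM + 1) means of the groups differed by 4.06 (SE 0.63, limma adjusted p = 0.0057). Measured against 3 reads over the whole earlier group, its pooled reads were at least 24.3-fold higher, a bound that was not tested. It passed the filter on low values only through the windows of 24-29 h. It was not restricted to these hours, since it averaged 3.03 to 3.99 RPM in the 3-hour groups between 3 h and 15 h.

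The other, of 795 bp on the plus strand of chromosome 3 at 16196789 to 16197583, was at 8.69, 1.39 and 5.44 RPM at 21-24 h and at 39.4, 117, 85.4 and 84.5 RPM at 24-29 h. The difference was 3.86 (SE 0.50, limma adjusted p = 0.0029). This TSC had averaged 82.9 RPM at 0-3 h, where the 1-2 h window was the highest with 175 RPM, and 11.7 RPM at 18-21 h. Its mean of 81.7 RPM at 24-29 h was near that early mean.

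Of the falls in this class, a TSC of 20 bp on the plus strand of XR_group8, at 7547093 to 7547112, went from 765, 59.7 and 37.8 RPM to 29.2, 2.76, 10.4 and 0 RPM (difference -4.34, SE 1.17, limma adjusted p = 0.032). The 21-22 h value was far above the others, and the call was lost without any 1 of the 21-22 h, 22-23 h, 25-26 h, 26-27 h and 28-29 h libraries, with limma adjusted p from 0.058 to 0.079. A TSC of 169 bp on the plus strand of XR_group6, at 4204526 to 4204694, had 101, 65.3 and 58.3 RPM and then 10.9, 2.76, 5.00 and 0 RPM (difference -4.19, SE 0.68, limma adjusted p = 0.0064). That call stood in every alternative fit.

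Few genes had promoters called in opposite directions. Of 1013 genes with at least 2 tested TSCs, 244 had at least 1 that rose and 101 at least 1 that fell. At least 2 TSCs rose in 59 of the genes and fell in 16. Only 15.5% of all TSCs tested were called, and those not called may have changed too, so how rare such changes were was not tested. Both a risen and a fallen TSC were found in 3 genes. Their number ranged from 0 to 6 when a library was left out, with 0 without the 22-23 h, 25-26 h, 26-27 h or 28-29 h library, 1 without the 23-24 h library and 6 without the 24-25 h library. None was left among TSCs with a mean of at least 25 RPM.

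The first of the 3 genes lay on the plus strand of XR_group6 with 4 tested TSCs. The upstream TSC at 4876798 to 4876872 was at 2.17, 0 and 1.51 RPM and then at 6.10, 6.91, 7.51 and 11.3 RPM, a rise of 2.13 (SE 0.55, limma adjusted p = 0.028). It passed the filter on low values only through the windows of 24-29 h. A second TSC, at 4877101 to 4877177, rose from 14.1, 11.8 and 17.8 RPM to 21.9, 31.8, 36.8 and 34.9 RPM (difference 1.05, SE 0.30, limma adjusted p = 0.041). The much stronger TSC downstream, at 4884203 to 4884259, fell from 314, 627 and 536 RPM to 252, 278, 204 and 122 RPM (difference -1.21, SE 0.36, limma adjusted p = 0.046). It had averaged 1.48 RPM at 0-3 h, where the second TSC averaged 105 RPM. The upstream TSC lost its call without the 22-23 h or the 23-24 h library and with the start hour as a number, and it could not be tested without a 24-29 h library, since its mean was then under 5 RPM. The second lost its call without any library other than that of 24-25 h, and also with upper-quartile or TMM scaling, edgeR, DESeq2, the filter of 1 RPM, the 27-28 h library kept, or all libraries in the fit, with adjusted p from 0.052 to 0.17 in these fits across all TSCs. The downstream TSC lost its call without the 22-23 h, 23-24 h, 25-26 h, 26-27 h or 28-29 h library, with the 27-28 h library kept and with all libraries in the fit.

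The second gene, on the plus strand of XL_group1e, had a TSC at 6707251 to 6707448 with 27.2, 28.5 and 49.8 RPM at 21-24 h and 16.6, 12.4, 13.6 and 9.02 RPM at 24-29 h (difference -1.35, SE 0.33, limma adjusted p = 0.025). Its TSC at 6725842 to 6726148 rose from 5.43, 4.86 and 7.85 RPM to 18.1, 12.4, 20.0 and 13.5 RPM (difference 1.27, SE 0.34, limma adjusted p = 0.032). At 24-29 h the values of the 2 TSCs overlapped, whereas at 0-3 h the downstream one had averaged 787 RPM and the upstream one 5.62 RPM. The upstream call was lost without any library other than those of 21-22 h and 24-25 h, and the downstream call without any library other than that of 25-26 h. With the start hour as a number both calls were lost, and the downstream one also with the filter of 1 RPM and with all libraries in the fit.

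In the third gene, on the plus strand of chromosome 3, the promoters were narrow. A TSC of 29 bp at 17599888 to 17599916 rose from 3.26, 2.08 and 8.46 RPM to 24.2, 9.67, 12.9 and 12.4 RPM (difference 1.58, SE 0.47, limma adjusted p = 0.046). Its mean at 21-24 h was 4.60 RPM, so it passed the filter on low values only through the windows of 24-29 h. The TSC of 8 bp at 17603585 to 17603592 fell from 45.6, 73.6 and 29.0 RPM to 19.4, 2.76, 4.29 and 2.25 RPM (difference -2.96, SE 0.60, limma adjusted p = 0.013). A broader TSC of the same gene, at 17596094 to 17596224, was at 40.2, 43.7 and 43.8 RPM and then at 28.6, 105, 44.3 and 51.8 RPM, with overlapping groups (limma adjusted p = 0.67). With a library left out, the rise was called only without the 23-24 h library. It was also lost with all 7 libraries under upper-quartile scaling, TMM scaling, edgeR, DESeq2 and the start hour as a number, with adjusted p from 0.063 to 0.13 in these fits across all TSCs, and under edgeR with the 27-28 h library kept (adjusted p = 0.051). The fall was not called without the 22-23 h library and was called in the other alternative fits.

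Promoters that fell had fallen neighbours more often than the share over all tested TSCs given to a gene. Among fallen TSCs given to a gene, the next tested TSC of another gene within 15 kb had also fallen in 54 of 257 cases (21.0%), against 5.37% of all tested TSCs given to a gene. For risen TSCs the share was 73 of 505 (14.5%), against 10.1%. The shares over all TSCs include those with no such neighbour, and TSCs of like earlier course were not compared. Runs of at least 4 called TSCs of at least 4 genes in the same direction, with gaps of at most 15 kb, a rule chosen after the values were seen, numbered 7 for falls, with 38 TSCs, and 3 for rises, with 14 TSCs. No TSC inside these runs was called in the opposite direction. Neighbouring genes can share sequence, and reads that could be split between near-identical copies make single values in such runs uncertain.

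The densest run of falls spanned 3.9 kb of XR_group8, positions 4528072 to 4532013, where all 4 tested TSCs, of 4 genes on both strands, fell. The TSC at 4528072 to 4528112 was at 311, 579 and 313 RPM at 21-24 h and at 59.1, 13.8, 6.43 and 10.1 RPM at 24-29 h (difference -4.54, limma adjusted p = 0.0030). The TSC of 23 bp at 4530216 to 4530238 was at 401, 407 and 461 RPM, still at 256 RPM at 24-25 h, and then at 41.4, 4.65 and 10.1 RPM (difference -3.88, limma adjusted p = 0.029). At 15-18 h these TSCs had averaged 2.73 and 5.10 RPM.

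On chromosome 2, all 6 tested TSCs between 10453905 and 10471276 fell, with a median difference of -3.62. The strongest, a TSC of 20 bp on the plus strand at 10457574 to 10457593, went from 1833, 2643 and 1240 RPM to 176, 34.5, 56.5 and 18.0 RPM (difference -5.15, limma adjusted p = 0.0028). It had averaged 21.5 RPM at 15-18 h and 550 RPM at 18-21 h. The 24-25 h library was the highest of the later group in all 6 TSCs.

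A pair of runs lay close together on XR_group8, at 1945170 to 1965115 and 1987839 to 2017705, each with 6 of 9 tested TSCs lower. The second held the most active of the fallen promoters, a TSC of 152 bp on the plus strand at 2007395 to 2007546, which ranked sixth of all TSCs by its mean over the 7 libraries. It was at 17227, 7286 and 8917 RPM and then at 1704, 3817, 2548 and 1732 RPM (difference -2.16, limma adjusted p = 0.011). One of its neighbours, a TSC of 41 bp on the minus strand at 2003429 to 2003469, fell from 9976, 9355 and 6915 RPM to 4745, 1459, 1595 and 516 RPM (difference -2.48, limma adjusted p = 0.023). The TSC of 227 bp at 2003671 to 2003897 had 13247, 3415 and 5929 RPM against 5774, 1639, 2216 and 745 RPM, with overlapping groups, and was not called (limma adjusted p = 0.096).

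On XR_group6, 6 of 9 tested TSCs between 9527172 and 9540542 fell by a median of -2.13, all of them 11 to 36 bp wide. The TSC of 36 bp on the plus strand at 9536456 to 9536491 was the most active of these, with 857, 2728 and 2669 RPM at 21-24 h and 851, 554, 316 and 159 RPM at 24-29 h, so that its highest later value lay just under its lowest earlier one (difference -2.23, limma adjusted p = 0.029). In the same run a TSC of 32 bp at 9530880 to 9530911 stayed between 999 and 2313 RPM in all 7 libraries and was not called (limma adjusted p = 0.50).

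Falls of 5 TSCs were found on chromosome 2 between 19846316 and 19863216, out of 7 tested. The strongest of these, a TSC of 61 bp on the minus strand at 19863156 to 19863216, declined from 3840, 2626 and 1647 RPM to 821, 318, 205 and 50.7 RPM (difference -3.47, limma adjusted p = 0.015). On chromosome 3, between 4009680 and 4032455, 5 of 10 tested TSCs fell, and the other 5 had differences from -0.45 to -1.33 that did not pass the threshold. The TSC of 72 bp at 4009680 to 4009751 changed most among them, from 80.4, 79.2 and 44.1 RPM to 11.1, 4.14, 6.43 and 1.13 RPM (difference -3.57, limma adjusted p = 0.0050). In the first of the pair of runs on XR_group8, the TSC of 297 bp at 1948871 to 1949167 was at 4306, 1332 and 5141 RPM and then at 1880, 279, 271 and 131 RPM, with overlapping groups because the 24-25 h value exceeded that of 22-23 h (difference -3.06, limma adjusted p = 0.028).

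The run of rises with the largest median change was on the same scaffold, at 900600 to 921006, where 5 of 7 tested TSCs rose by a median of 3.30. All 5 were peaked, from 5 to 26 bp wide. Those starting at 900600, 911054 and 916936 had means of 2.40, 3.27 and 4.61 RPM at 21-24 h. They passed the filter on low values only through the windows of 24-29 h, so the count of 5 of 7 is a description. The strongest, of 26 bp on the minus strand at 907147 to 907172, was at 60.9, 39.6 and 178 RPM and then at 703, 946, 1539 and 1168 RPM (difference 3.77, limma adjusted p = 0.0028). The TSC of 8 bp at 920999 to 921006 went from 3.26, 5.56 and 10.3 RPM to 50.1, 78.8, 122 and 165 RPM (difference 3.81, limma adjusted p = 0.0028). It had averaged 5.33 RPM at 9-12 h and 0.09 RPM at 15-18 h. In each of the 5 the 23-24 h library was the highest of the earlier group.

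The other runs of rises had smaller median changes. On XL_group1a, 5 of 8 tested TSCs between 57683 and 88826 rose by a median of 1.21, and they were 89 to 361 bp wide. The TSC of 361 bp on the plus strand at 78113 to 78473 went from 16.3, 25.7 and 19.0 RPM to 52.2, 42.8, 64.3 and 94.7 RPM (difference 1.56, limma adjusted p = 0.015). The third run, on chromosome 2 at 24003247 to 24019341, held 4 risen TSCs of 5 tested. It included the TSC of FBgn0037714, which passed the filter on low values only through the windows of 24-29 h. Its TSC of 59 bp at 24003247 to 24003305, active at 91.1 RPM on average at 15-18 h, was at 84.8, 73.6 and 53.2 RPM and then at 115, 258, 147 and 191 RPM (difference 1.28, limma adjusted p = 0.028).

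**Figure D5:**
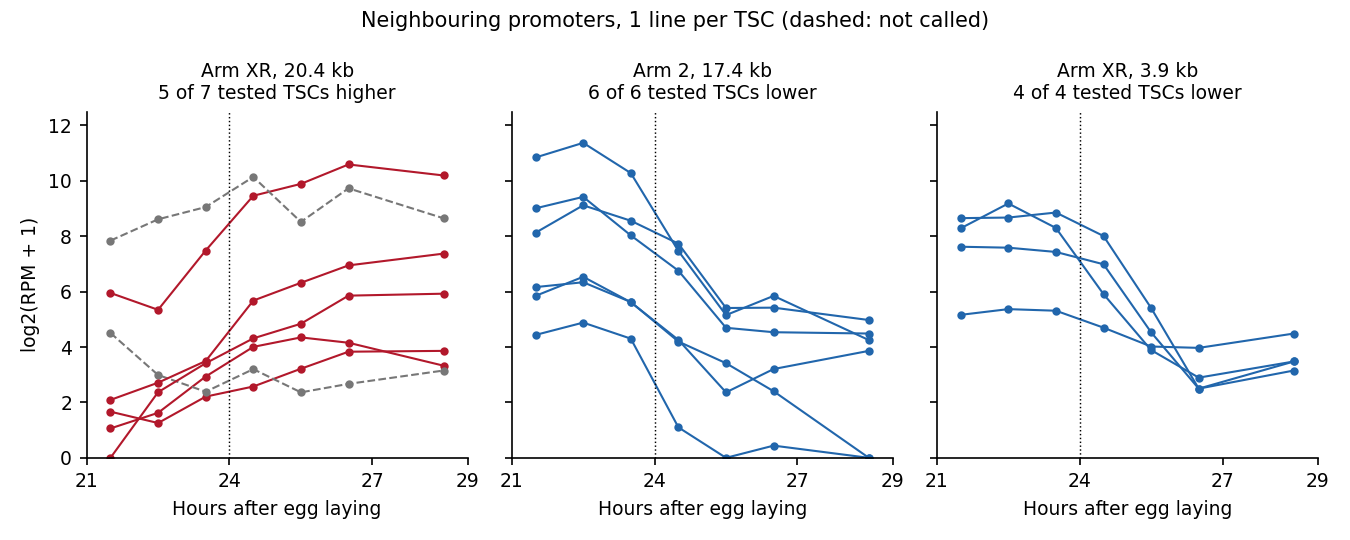
log2(RPM + 1) of each tested TSC in 3 runs of neighbouring promoters, 1 line per TSC over the 7 windows, red for TSCs called higher, blue for TSCs called lower and dashed grey for those not called, with a dotted line at 24 h. All 6 TSCs of the run on chromosome 2 and all 4 of the 3.9 kb run on XR decline after 24 h, while 5 of 7 in the run on the left increase.

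The most abundant promoter by mean level, a TSC of 266 bp on the minus strand of chromosome 3 at 11050927 to 11051192, had 64342, 44429 and 70885 RPM at 21-24 h and 78669, 53524, 73262 and 55813 RPM at 24-29 h, so that it took 4.44% to 7.87% of the reads in every one of the 7 libraries. Its groups overlap (difference 0.13, SE 0.41, limma adjusted p = 0.84). The next, a TSC of 19 bp on the minus strand of 4_group4 at 635082 to 635100, had 4094, 14785 and 15249 RPM and then 16956, 24806, 21273 and 28205 RPM, groups that do not overlap, and did not pass the threshold (difference 1.20, limma adjusted p = 0.12). Of the 10 most abundant TSCs, 1 was called, the fallen TSC at 2007395 to 2007546 described above, against 15.5% of all TSCs tested, and nothing is read from a share of so few.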

How the data were processed

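Per the study's methods, the authors aligned RAMPAGE reads with STAR (version not given in the sources used here) to the FlyBase r2.9 genome, called TSCs on the pooled reads of the series with their own caller, and deposited activity as RPM, made for 26066 TSCs and 8466 genes. The deposited intervals carry a score whose meaning is not stated, and it was not used. A further deposited table of smoothed z-scores was not used, since its points are not single libraries.

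Windows were grouped by the stage in the labels. Genes or TSCs with a mean of at least 5 RPM over the 7 libraries were tested with limma 3.58.1 (R 4.3.3, trend option) on log2(RPM + 1), a scale that understates changes of low values. Every nonzero value was within 0.1 of a whole multiple of the value of 1 read, and the recovered reads were tested with edgeR 4.0.16 and DESeq2 1.42.0 as alternatives. Other alternatives were the pseudocount, the filter on low values, the scaling, the start hour as a number, all libraries in 3-hour groups, the 27-28 h library kept, and each library left out. Scripts were tested on simulated data. The authors' RPM for genes are relative to more reads than those of the genes in the table.

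None of the gene identifiers matched a symbol in the reference table at hand (0 matched), so lists of pathway and cell type marker genes could not be applied, and no sequence is shown. The gene table and the TSC table use different identifiers, and 6591 genes were joined to TSCs by identical reads in all 29 libraries. Named genes are the 2 with the largest rise and the 2 with the largest fall among those called without overlap of the groups. The TSCs of genes with promoters that moved in opposite directions, and the 2 largest rises and falls among TSCs given to no gene, were named too. Runs of neighbouring promoters, their members, the set of 31 early genes and the most abundant TSCs were chosen after their values were seen. The windows compared, the lists and the tests were chosen with earlier results of these data known.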

Additional observations from a re-analysis of the deposited data

Results flagged for a closer look

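Among 100 TSCs and genes whose values in the 4 windows of 24-29 h were checked, 13 had 1 window far from the other 3 (a gap to the nearest that exceeded the critical value of Dixon's test), and in all 13 this was the 24-25 h library, above the others. For independent, normally distributed values the critical value would set apart about 1 in 20. The 4 windows are successive ages, and many of the TSCs checked are neighbours chosen because they fell. The 13 therefore cannot be read against that share. In the runs on XR_group8, the 24-25 h values were 989 RPM at the TSC starting at 1945170, 1880 RPM at 1948871, 4903 RPM at 1950993, 59.1 RPM at 4528072, 126 RPM at 4528427 and 256 RPM at 4530216. On chromosome 2 they were 107 RPM at 10462286, 211 RPM at 10471252 and 164 RPM at 19857395. On XR_group6 they were 9.53 RPM at 9529359, 1.72 RPM at 9532623, where the other 3 libraries were at 0, and 13.5 RPM at 9538699. On chromosome 3, the 8 bp TSC starting at 17603585 had 19.4 RPM at 24-25 h and at most 4.29 RPM later. Of the 13, 2 were not called between the groups, those starting at 1950993 and 9538699.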

How the results depend on the processing

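Over 18 alternatives, no gene or TSC called in the main fit was called in the opposite direction. The number of gene calls stayed within 1.5 times the 920 in every alternative with all 7 libraries or more (683 to 1256). The genes called changed more. Of the 920, 593 kept their call with the start hour as a number and 630 with a mean of at least 25 RPM. The other alternatives of this kind kept 776 to 919. Of the 1465 TSCs, 892 kept their call with the start hour as a number and 839 with a mean of at least 25 RPM. TSC calls numbered 872 with a mean of at least 25 RPM and 2221 when all libraries except 27-28 h shared the spread, against 1465. With a library left out, calls ranged from 356 to 1021 genes and from 460 to 1748 TSCs, and genes with opposite promoters from 0 to 6. With a mean of at least 25 RPM, 0 such genes remained, and the median width of risen minus fallen TSCs was 31.5 bp in place of 60.5 bp. For the 15 named genes and TSCs that were called, 258 alternative fits gave an adjusted p. Of these, 202 kept the call and 56 lost it, with no change of sign. Fits in which a gene or TSC failed the filter on low values or got no adjusted p are not counted. No paired analysis was possible because the labels give the windows no replicate numbers. Values rest on 1 library per window, and depth limits TSCs near the value of 3 reads in the shallow libraries.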
